A study of Mus musculus with 6 samples.

Results

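This account covers 7 DNA repair genes that are commonly listed as linked to p53, *Ddb2*, *Xpc*, *Ercc5*, *Polk*, *Rrm2b*, *Gadd45a* and *Fancc*, out of 36172 genes in a table of RNA sequencing values from mouse intestinal tumor organoids. They were chosen by name, with earlier results of these data known. Organoids are three-dimensional epithelial cultures grown from tissue, here from small intestinal tumors of C57BL/6 mice aged 15 to 20 weeks. All tumors carried a truncating *Apc* mutation (ApcΔ716) and had lost the other *Apc* allele. The groups are named by *Trp53*, the mouse gene for p53. In the wild-type group *Trp53* was +/+. In the null group it was flox/flox, which per the methods is the LSL-R270H allele before recombination and is functionally null. In the R270H group (M/M in the labels) villin-CreER had recombined the same allele, so that both copies carried the R270H missense mutation. That enzyme is a Cre recombinase active in intestinal epithelium and switched on by tamoxifen, which these mice received. Between R270H and null, tamoxifen and Cre activity cannot be told apart from the R270H allele. For wild-type mice, the paper does not state whether tamoxifen was given. Each genotype had 2 libraries, from organoids prepared separately from 2 mice. Values are rpkm, reads per kilobase of gene scaled to the mapped reads of the library, and no value in the table is below 1 rpkm, so a gene listed at 1 may be lower.

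p53 is a transcription factor that binds DNA as a tetramer and raises the expression of many genes after DNA damage, among them several that remove or tolerate the damage. Nucleotide excision repair removes bulky lesions such as those made by ultraviolet light: DDB2 and XPC find the lesion, and nucleases, one of them the *Ercc5* product XPG, cut the strand on either side of it. *Polk* encodes DNA polymerase kappa, which copies past damaged bases (translesion synthesis). *Rrm2b* encodes p53R2, a ribonucleotide reductase subunit that supplies deoxynucleotides outside S phase. *Gadd45a* encodes a small stress protein that binds PCNA and other partners, and *Fancc* encodes a core protein of the Fanconi anaemia pathway for repair of DNA interstrand crosslinks.

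*Polk* and *Ercc5* were lower in both *Trp53* mutant genotypes than in wild-type organoids, by about 3 to 5 times, and the null and R270H libraries overlapped each other. *Gadd45a* fell in R270H organoids and was lower there than in null organoids, although both calls were lost when libraries were centred by transcript length. Of its null libraries, 1 lay inside the wild-type range and 1 below it. *Xpc* was higher in R270H than in null organoids. Its R270H level differed from wild-type by less than the standard error of the fit to all 6 libraries. *Ddb2*, *Rrm2b* and *Fancc* did not pass the test in any of the 3 comparisons with all libraries. The test was limma on log2(rpkm+1) over the 10042 genes that reached 4 rpkm in any library, with Benjamini-Hochberg adjustment over all of them, and a gene passed at an adjusted p under 0.05. *Fancc* stayed under 4 rpkm in all 6 libraries and is described from a fit without that filter, so 6 of the 7 genes were tested in the main fit.

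The sequences before the start sites of 3 members that passed a test are shown here because p53 acts through such DNA. They are the 250 bases before an annotated start, from RefSeq on GRCm38.p6, written 5′ to 3′ on the strand of the gene, and 4 of the 7 members had an entry (*Ercc5*, *Polk*, *Gadd45a* and *Fancc*). Capitals mark matches to the p53 half-site consensus, the 10-base unit of which p53 usually binds a pair. The consensus reads the same on both strands. *Cdkn1a*, the textbook p53 target that encodes the cell cycle inhibitor p21, is shown for reference from the upstream of its annotated starts at chr17:29090729-29090978 (plus strand). *Ercc5* is at chr1:44147494-44147743 (plus strand), *Gadd45a* at chr6:67037408-67037657 (minus strand), the upstream start of *Polk* at chr13:96542580-96542829 and an internal start of *Polk* at chr13:96519188-96519437 (both minus strand).
Cdkn1a: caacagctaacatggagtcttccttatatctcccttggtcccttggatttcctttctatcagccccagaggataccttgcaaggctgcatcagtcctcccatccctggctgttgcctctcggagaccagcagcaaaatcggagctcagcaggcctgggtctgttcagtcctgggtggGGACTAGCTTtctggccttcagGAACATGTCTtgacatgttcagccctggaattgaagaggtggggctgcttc
Gadd45a: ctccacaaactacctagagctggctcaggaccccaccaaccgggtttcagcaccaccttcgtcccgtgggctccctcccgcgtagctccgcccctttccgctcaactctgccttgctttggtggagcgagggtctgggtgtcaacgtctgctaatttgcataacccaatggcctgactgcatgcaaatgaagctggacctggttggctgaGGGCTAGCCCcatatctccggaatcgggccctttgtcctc
Ercc5: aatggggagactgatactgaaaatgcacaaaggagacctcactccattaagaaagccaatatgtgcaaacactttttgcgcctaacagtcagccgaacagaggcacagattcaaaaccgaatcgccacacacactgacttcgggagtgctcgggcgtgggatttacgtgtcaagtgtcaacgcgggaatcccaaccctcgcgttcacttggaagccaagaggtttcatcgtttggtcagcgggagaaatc
Polk, upstream start: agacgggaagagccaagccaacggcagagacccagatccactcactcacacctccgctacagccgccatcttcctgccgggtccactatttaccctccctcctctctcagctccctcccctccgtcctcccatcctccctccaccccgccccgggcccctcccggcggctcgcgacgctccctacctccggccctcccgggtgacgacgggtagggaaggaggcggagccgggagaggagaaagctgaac
Polk, internal start: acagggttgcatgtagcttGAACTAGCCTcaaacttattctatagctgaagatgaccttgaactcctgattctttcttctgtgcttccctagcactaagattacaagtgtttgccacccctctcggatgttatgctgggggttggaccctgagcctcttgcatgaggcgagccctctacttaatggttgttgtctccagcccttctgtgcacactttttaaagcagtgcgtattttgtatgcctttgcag
The *Cdkn1a* window held 2 half-site matches, whose first bases lie 73 and 51 bases before the start. The window of its other annotated start, chr17:29093519-29093768, held 0 half-site matches and 2 copies of the GC box core described after these. *Gadd45a* held 1, at 40 bases before the start, and the internal start of *Polk* held 1, at 231 bases before it. No match was found in the windows of *Ercc5*, of the upstream start of *Polk* and of *Fancc*. The *Fancc* window, chr13:63431746-63431995, lies inside the annotated span of the gene. The *Gadd45a* window reaches into the annotated span of its gene, up to chr6:67037457, and its half-site match lies in that part. Only these windows were searched, so sites elsewhere were not covered. Of all 32851 RefSeq windows of this length, 7.13% held at least 1 match, and a match is a description of the letters and not a measured site. The GC box core GGGCGG or its reverse complement, which overlaps no half-site match here, was found in *Gadd45a* and at the upstream start of *Polk* (32.74% of all windows), and CCAAT or its reverse complement in *Gadd45a*, *Ercc5* and *Fancc* (33.85%).

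The null label was checked on *Trp53* itself, which stood at 75.9 and 74.3 rpkm in wild-type, 1.73 and 2.48 in null and 72.8 and 82.7 in R270H organoids. This level does not tell R270H from wild-type, and reads at the mutation were not examined. The p53 targets *Cdkn1a* (110.0 and 122 in wild-type, 11.8 and 27.0 in null, 31.9 and 29.5 in R270H) and *Mdm2*, the ubiquitin ligase that degrades p53 (40.5 and 44.2, 14.4 and 16.9, 23.0 and 22.5), fell in both mutant genotypes. Depth was estimated at 44.3 to 47.3 M reads in 5 libraries and could not be estimated for null replicate 1. That library stood apart. The typical s.d. between replicates on the log2 scale was 0.247 for null, against 0.0463 for wild-type and 0.0621 for R270H. Relative to wild-type, the genes of null replicate 1 shifted with transcript length. Their median went from 0.54 higher in the shortest of 8 length classes to 0.62 lower in the longest, whereas null replicate 2 went from 0.08 higher to 0.04 lower. The R270H libraries had a smaller trend the other way, from -0.195 and -0.070 in the shortest class to 0.178 and 0.123 in the longest. Epithelial markers summed to 2904 and 2854 rpkm in wild-type, 4400 and 4130 in null and 2434 and 2604 in R270H libraries, and 14 proliferation genes to 964 and 940, 1336 and 1310, and 1034 and 1041. Genes with high levels weigh most in such sums. In null against wild-type, 8 of the 10 epithelial markers were fitted higher and 2 lower, and 12 of the proliferation genes higher and 2 lower. *Axin2* stood at 136 and 130 rpkm in wild-type, 80.9 and 88.9 in null and 171 and 191 in R270H libraries. *Mki67* stood at 33.3 and 94.0 in the null pair. Of 16 mesenchymal, endothelial and blood cell markers, 10 were listed at 1 in all libraries, *Ptprc*, *Pecam1* and *Col3a1* among them. With each such gene counted as 1, the list summed to 33.1 and 33.2 rpkm in wild-type, 17.1 and 40.9 in null and 17.8 and 18 in R270H libraries. Only *Cdh5*, *Cd68* and *Acta2* of the list passed the filter, and they did not move alike. *Cdh5* fell in both mutant genotypes. *Cd68* stood at 10.2 and 9.87 rpkm in wild-type, 2.06 and 11.1 in null and 2.22 and 2.41 in R270H libraries. *Acta2* was listed at 1 in wild-type and in null replicate 1, at 11.5 in null replicate 2 and at 1.525 and 1.595 in R270H libraries. *Col1a1*, *Pdgfra* and *Pdgfrb* were above 1 only in null replicate 2 (2.44, 1.23 and 1.36). The part of these differences in the results was not tested. In such bulk samples, fewer cells of a type and less RNA per cell cannot be told apart.

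**Figure D1:**
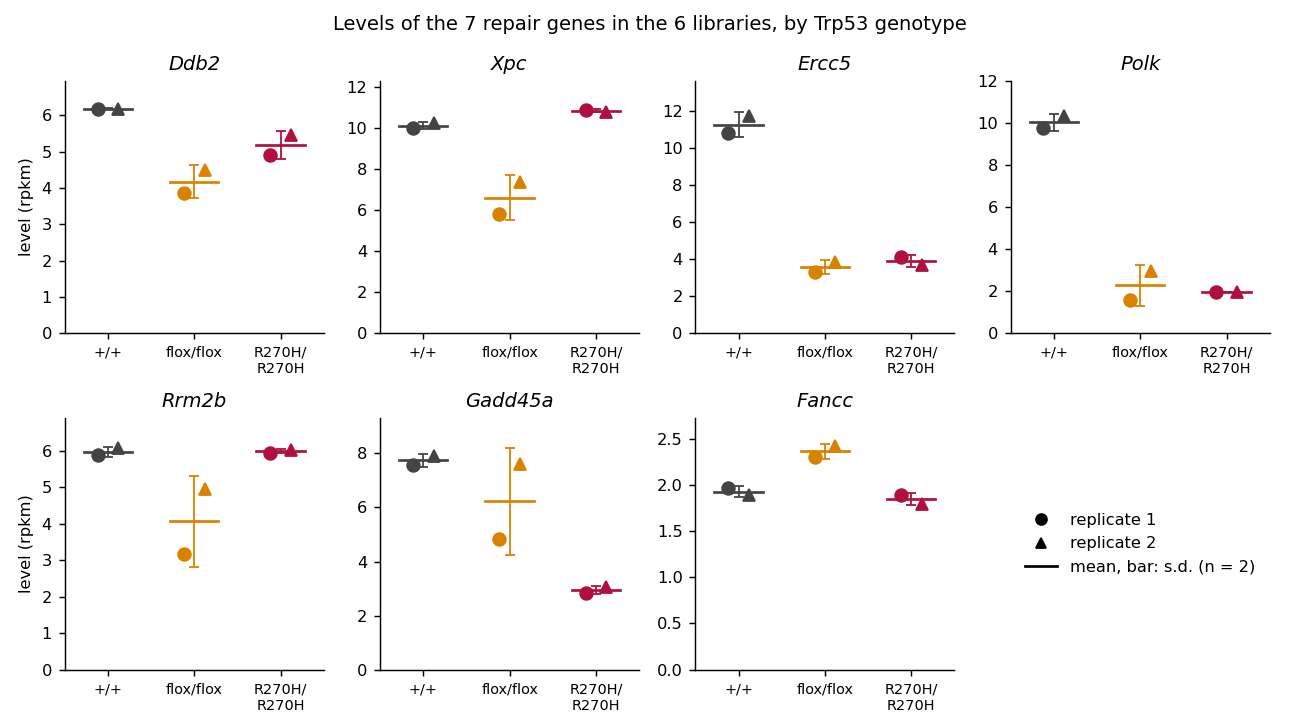
Level in rpkm (vertical axis, from 0, its own scale for each gene) of the 7 repair genes by *Trp53* genotype. Circles are replicate 1, triangles replicate 2, lines the mean of 2 libraries and bars the s.d. (n=2); *Ercc5* and *Polk* stand above 9 rpkm in both wild-type libraries and below 5 rpkm in the 4 mutant libraries.

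*Ddb2* (chr2:91211572-91236982, minus strand of GRCm38, 7 exons in its longest transcript) encodes the lesion-binding subunit of the UV-DDB complex. Its level was 6.19 and 6.18 rpkm in wild-type, 3.85 and 4.49 rpkm in null and 4.92 and 5.47 rpkm in R270H organoids. The 3 genotypes did not overlap, with wild-type highest and null lowest. The null mean was 1.48-fold below wild-type, a difference of -0.48 (s.e. 0.13) on the log2(rpkm+1) scale that missed the threshold (limma, adjusted p = 0.0728, and 0.0277 without null replicate 1, at a difference of -0.39). The R270H difference from wild-type was -0.22 (adjusted p = 0.314) and that from null was 0.26 (adjusted p = 0.179), so the test with all libraries separated R270H from neither neighbour. With a weight per genotype the first passed (adjusted p = 0.0427), and without null replicate 2 the second passed (0.35, adjusted p = 0.0197), as did null against wild-type (-0.57, adjusted p = 0.00457). *Ddb2* overlaps *Acp2*, a lysosomal phosphatase gene on the opposite strand, over 2527 bases. Whether the counting used strand is not stated, so reads of the pair may not be separate. *Acp2* stood at 10.7 and 10.4 rpkm in wild-type, 6.57 and 6.14 in null and 12.8 and 11.9 in R270H organoids.

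*Xpc* (chr6:91489305-91515888, minus strand, 13 exons) encodes the protein that opens global genome repair by sensing the distorted helix. It stood at 10.001 and 10.25 rpkm in wild-type, 5.82 and 7.38 rpkm in null and 10.9 and 10.8 rpkm in R270H organoids. Both null libraries were below the other 4, and both R270H libraries were slightly above wild-type. *Xpc* was higher in R270H than in null organoids by 1.64-fold, a log2 difference of 0.65 (s.e. 0.13, adjusted p = 0.0281). It was 0.50 without null replicate 1 (adjusted p = 0.00592) and 0.80 without null replicate 2 (adjusted p = 0.000838). The call was lost at a like difference without either wild-type library (adjusted p = 0.107 and 0.106), without either R270H library (0.202 and 0.154), with a weight per genotype (0.106), with only the 2 genotypes (0.106) and with a replicate block (0.0589). The null difference from wild-type, -0.56, missed the threshold with all libraries (adjusted p = 0.0588) and passed it without null replicate 1 (-0.41, adjusted p = 0.0137) or replicate 2 (-0.71, adjusted p = 0.0013). It also passed when each library was centred by transcript length (-0.49, adjusted p = 0.0299). R270H and wild-type differed by 0.09, with a 95% interval from -0.25 to 0.43 (adjusted p = 0.69), a sign that turned with length centring (-0.0014).

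*Ercc5* (chr1:44147744-44181260, plus strand, 14 exons) encodes XPG, the nuclease that cuts on the 3′ side of the lesion. Its level was 10.8 and 11.7 rpkm in wild-type, 3.32 and 3.85 rpkm in null and 4.13 and 3.65 rpkm in R270H organoids. All 4 mutant libraries lay far below both wild-type libraries, and the mutant genotypes overlapped. The mean fell from 11.3±0.676 to 3.58±0.379 rpkm in null (3.14-fold) and to 3.89±0.333 rpkm in R270H organoids (2.90-fold, s.d., n=2). On the log2(rpkm+1) scale these were differences of -1.42 (s.e. 0.13, adjusted p = 0.00995) and -1.33 (s.e. 0.13, adjusted p = 0.00681). The null call was lost at the same difference with a weight per genotype (adjusted p = 0.0553) and with only the 2 genotypes (adjusted p = 0.0682). It was also lost without either wild-type library (-1.48 and -1.37) and without either R270H library (-1.42 each time). R270H and null differed by 0.09, with a 95% interval from -0.24 to 0.43 (adjusted p = 0.605). The filter kept *Ercc5* through its wild-type libraries and 1 R270H library at 4.13 rpkm.

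*Polk* (chr13:96480690-96542579, minus strand, 15 exons) had the largest differences from wild-type of the 7 genes. It stood at 9.77 and 10.3 rpkm in wild-type, 1.60 and 2.97 rpkm in null and 1.97 and 1.95 rpkm in R270H organoids. Both mutant genotypes lay below wild-type, and the R270H values fell between the 2 null values. The mean of 10.1±0.409 rpkm fell to 2.28±0.971 rpkm in null (4.41-fold) and to 1.96±0.0174 rpkm in R270H organoids (5.13-fold). The log2 differences were -1.78 (s.e. 0.22, adjusted p = 0.0172) and -1.90 (s.e. 0.22, adjusted p = 0.0111). The null call was lost at the same difference with only the 2 genotypes (adjusted p = 0.0938). It was also lost without either wild-type library (-1.82 and -1.75) and without either R270H library (-1.78 each time). Among 10042 genes, 0.99% lay lower in the R270H comparison. *Polk* passed the filter through its wild-type libraries alone, so it could be tested only if it was high there. The R270H libraries rested on an estimated 369 and 374 reads for this gene, a counting error of 5.20 and 5.17%. R270H and null differed by -0.12, with a 95% interval from -0.69 to 0.45 (adjusted p = 0.711). Without null replicate 1, the lower of the null pair, R270H was 0.42 below null and this passed (adjusted p = 0.0122), and without null replicate 2 it was 0.19 above null.

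*Polk* and *Fancc* lie on chromosome 13, whose genes as a whole were lower in R270H libraries. The 355 tested genes of this chromosome had medians of -0.29 and -0.38 in the 2 R270H libraries against the wild-type mean, and of -0.09 and -0.07 in the null libraries. In R270H against wild-type, 298 of them (83.9%) were fitted lower against 47.0% of all genes, and 57 (16.1%) passed the test as lower against 6.36% of all genes. The 55 tested genes within 5 Mb of *Polk* had medians of -0.27 and -0.42. *Polk* lay well below this level, and 1 gene of the chromosome was lower. With each library centred by chromosome, the *Polk* difference between R270H and wild-type was -1.56 (adjusted p = 0.0145). The part of the chromosome in the difference of *Polk* was otherwise not tested.

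**Figure D2:**
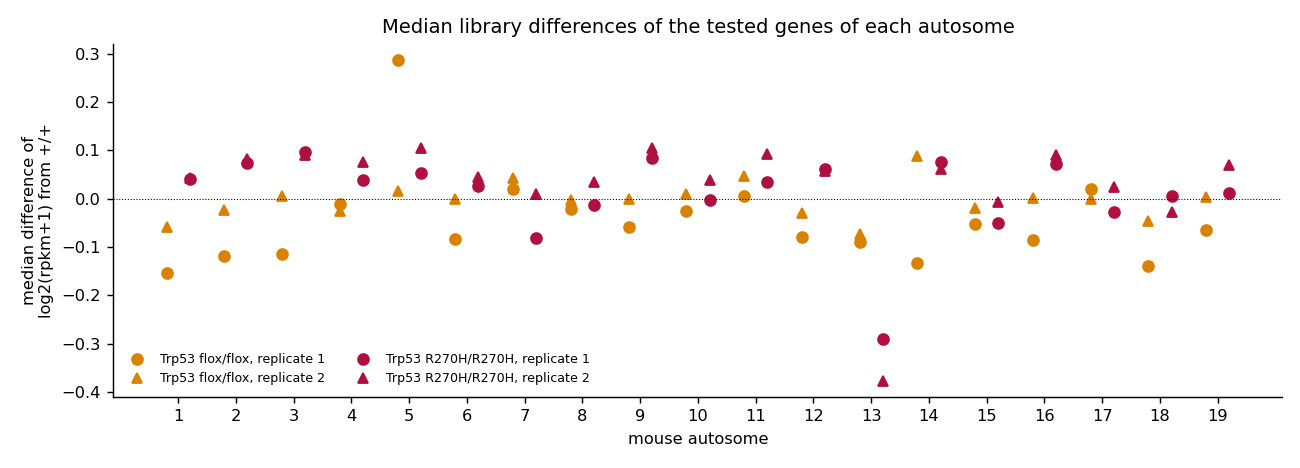
Median difference of log2(rpkm+1) from the wild-type mean (vertical axis) over the tested genes of each mouse autosome (horizontal axis) in the 4 mutant libraries. Orange marks are null, red marks R270H, circles replicate 1 and triangles replicate 2; chromosome 13, which holds *Polk* and *Fancc*, is at -0.29 and -0.38 in the R270H libraries, and chromosome 5 is at 0.29 in null replicate 1.

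*Rrm2b* (chr15:37923952-37961318, minus strand, 9 exons) was level between wild-type and R270H organoids. Its values were 5.88 and 6.07 rpkm in wild-type, 3.18 and 4.95 rpkm in null and 5.95 and 6.02 rpkm in R270H organoids. The R270H values lay inside the wild-type pair, and both null values lay below. R270H and wild-type differed by 0.00 with a 95% interval from -0.49 to 0.49 (adjusted p = 0.999). That interval used a spread shared over the 3 genotypes, with an s.e. of 0.19. With only the 2 genotypes compared, the s.e. of this difference was 0.06 (limma, adjusted p = 0.989). The null difference from wild-type was -0.48 (adjusted p = 0.146) and that of R270H from null was 0.49 (adjusted p = 0.118), and the null libraries were farther apart than either other pair. Without null replicate 1 these were -0.23 (adjusted p = 0.0691) and 0.23 (adjusted p = 0.0568). Without null replicate 2 both passed, at -0.74 (adjusted p = 0.00128) and 0.74 (adjusted p = 0.00112), so these comparisons of *Rrm2b* depend on which null library is used.

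*Gadd45a* (chr6:67035096-67037457, minus strand, 4 exons) was lowest in R270H organoids. It stood at 7.57 and 7.92 rpkm in wild-type, 4.82 and 7.62 rpkm in null and 2.85 and 3.04 rpkm in R270H organoids. R270H lay below all other libraries, and null replicate 2 lay inside the wild-type range. Its mean fell 2.63-fold, from 7.74±0.244 rpkm in wild-type to 2.95±0.133 rpkm in R270H organoids, a log2 difference of -1.15 (s.e. 0.21, adjusted p = 0.0305). Against null the difference was -0.84 (s.e. 0.21, adjusted p = 0.0412). It was -1.13 without null replicate 1 (adjusted p = 0.00103) and -0.56 without null replicate 2 (adjusted p = 0.00316). The call was lost with a weight per genotype (adjusted p = 0.099), with only the 2 genotypes (0.121), with a replicate block (0.0601), without either wild-type library (0.12 for both) and without either R270H library (0.241 and 0.178). Null and wild-type differed by -0.30, with a 95% interval from -0.83 to 0.22 (adjusted p = 0.333). This difference was -0.02 without null replicate 1 (adjusted p = 0.859) and passed at -0.59 without null replicate 2 (adjusted p = 0.00306). The transcript has 1223 bases and falls in the shortest length class, whose median was -0.20 and -0.07 in the R270H libraries and 0.54 in null replicate 1. With length centring neither call was kept (-1.04, adjusted p = 0.0823, against wild-type, and -0.44, adjusted p = 0.344, against null). The R270H values rested on an estimated 155 and 169 reads, a counting error of 8.04 and 7.69%.

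**Figure D3:**
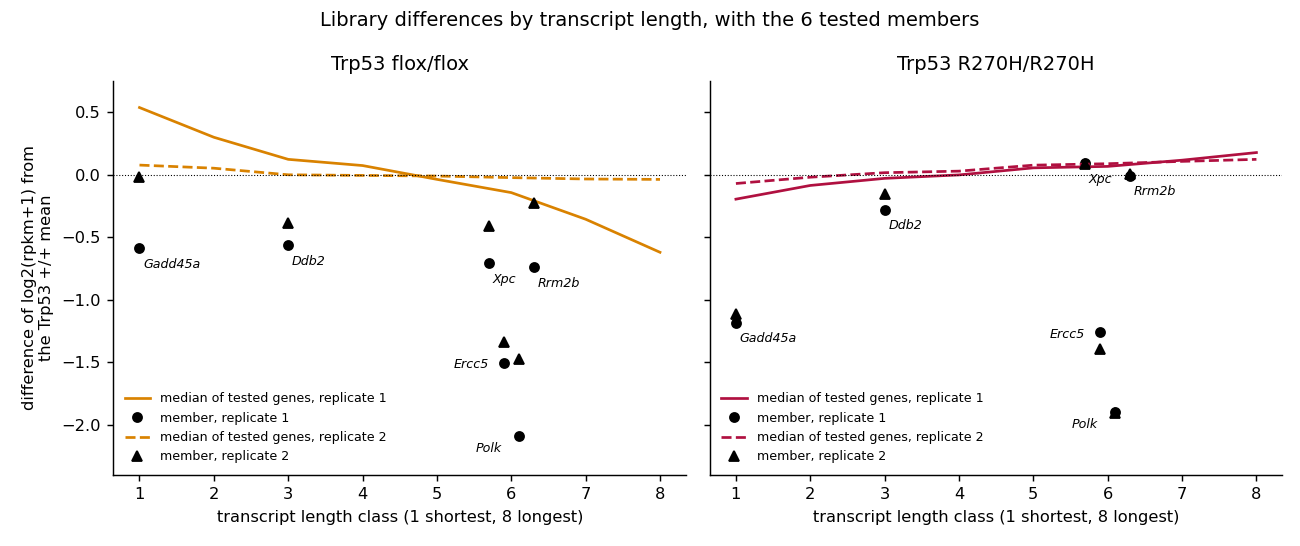
Difference of log2(rpkm+1) from the wild-type mean (vertical axis) by class of transcript length (horizontal axis, 8 classes of near-equal gene number) in null (left) and R270H (right) libraries. Lines are medians of the tested genes and black marks the 6 tested members; null replicate 1 falls from 0.54 to -0.62 across the classes, and *Polk* and *Ercc5* differ from the median of their class by -1.31 to -2.00 in all 4 mutant libraries.

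*Fancc* (chr13:63285043-63497278, minus strand, 16 exons) had the lowest wild-type level of the 7 genes. It stood at 1.97 and 1.89 rpkm in wild-type, 2.30 and 2.42 rpkm in null and 1.89 and 1.80 rpkm in R270H organoids. Null was the highest genotype, and R270H overlapped wild-type. In the fit without a filter, null was 0.20 above wild-type (adjusted p = 0.111), R270H 0.24 below null (adjusted p = 0.055) and R270H 0.04 below wild-type (adjusted p = 0.716). The values rest on an estimated 258 to 362 reads in the 5 libraries with a depth. *Fancc* overlaps 2010111I01Rik on the opposite strand over 41054 bases, and that gene stood at 3.33 and 3.11, 5.96 and 4.39, and 6.99 and 6.82 rpkm in the same order of libraries.

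In R270H against wild-type, 3 of the 6 tested members passed as lower and 0 as higher, against 6.36% of all tested genes lower and 5.86% higher. At an unadjusted p under 0.05 (limma) there were 3 members, beside 3209 of all 10042 tested genes. The libraries did not overlap, with R270H below, for 4 members (37.6% of all genes), and above for 1 (44.2%). In null against wild-type, 2 passed as lower and 0 as higher, against 6.90% and 4.38% of all genes. At an unadjusted p under 0.05 there were 4 members, beside 3489 of all 10042 tested genes. Both null libraries were below both wild-type libraries for 5 members (33.9%) and above for 0 (30.6%). In R270H against null, 1 passed as higher and 1 as lower, against 13.6% and 11.0%, and the R270H libraries were both above for 3 members (36.8%) and both below for 1 (31.2%). Members fitted lower numbered 4, 6 and 2 in the 3 comparisons, against 47.0%, 52.1% and 47.7% of all genes. The member medians were -0.68, -0.52 and 0.18 on the log2 scale in the 3 comparisons, against 0.03, -0.02 and 0.03 over all genes. These counts describe 6 genes that were chosen with earlier results of these data known, so the shares over all genes are no test of them. *Polk* was among them only through its wild-type level. The comparisons with wild-type share the wild-type libraries. The calls rest on the full set of libraries, for members as for all genes. When any 1 of the wild-type or R270H libraries was left out, *Ercc5*, *Polk* and *Gadd45a* no longer passed in R270H against wild-type. Their log2 differences were then -1.26 to -1.40, -1.86 to -1.94 and -1.11 to -1.18. In null against wild-type and in R270H against null, the members passing changed with the library left out, as did the number over all genes. Such counts, with 1 library left in a genotype, describe the fit more than the members.

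**Figure D4:**
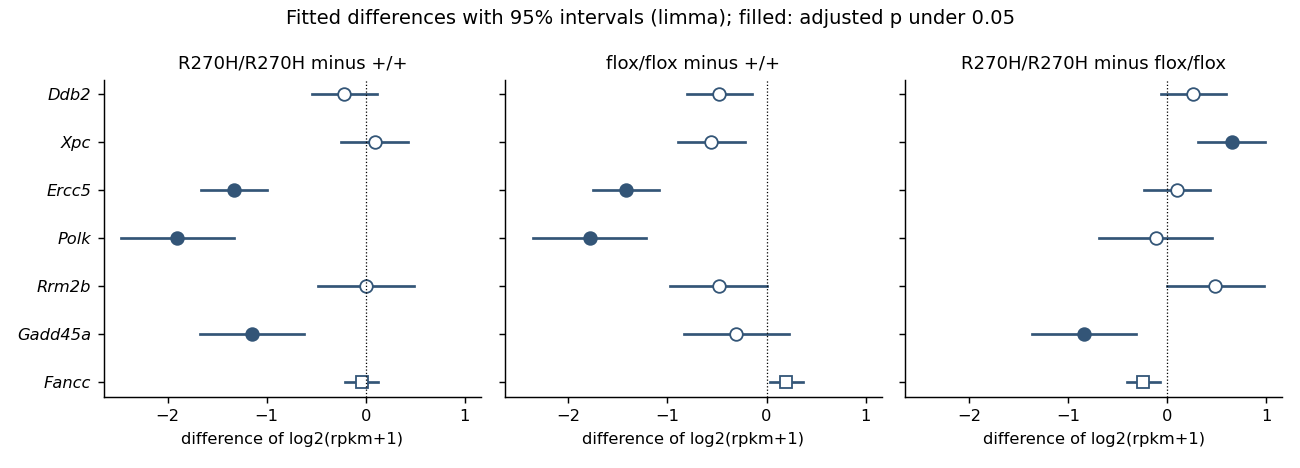
Fitted difference of log2(rpkm+1) (horizontal axis) for each member in the 3 comparisons. Bars are 95% intervals of the limma fit, filled marks have an adjusted p under 0.05, and the square marks *Fancc*, fitted without the filter; *Ercc5* and *Polk* are filled on the negative side against wild-type in both left panels and *Gadd45a* in the first and the last.

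The rest of the repair machinery was taken from 6 pathway lists of 104 genes, of which 95 were tested. In R270H against wild-type 3 passed as higher and 4 as lower, in null against wild-type 5 and 5, and in R270H against null 5 and 9, with medians of -0.05, 0.14 and -0.16. Shares of 4.21%, 5.26% and 9.47% lower stand beside 6.36%, 6.90% and 11.0% of all genes, and shares of 3.16%, 5.26% and 5.26% higher beside 5.86%, 4.38% and 13.6%. The counts moved with the libraries and weights used, as did those over all genes. With a weight per genotype, 46 of the 95 passed in R270H against wild-type, beside 5987 of all 10042 tested genes. In null against wild-type, 2 of the 95 then passed, beside 150 of all tested genes.

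Of 28 other nucleotide excision repair genes, 1 rose and 0 fell in R270H against wild-type, and 0 rose and 1 fell in null against wild-type. *Cetn2*, the centrin that binds XPC, rose from 29.8 and 29.5 rpkm in wild-type to 76.3 and 72.4 rpkm in R270H organoids (1.30, adjusted p = 0.0233). It stood at 49.99 and 32.6 rpkm in null organoids. *Cul4a*, the cullin scaffold of the ligase that contains DDB2, fell from 40.8 and 42.0 rpkm to 26.2 and 30.0 rpkm in null organoids (-0.55, adjusted p = 0.0377). Of 15 other translesion genes, 2 fell in null and 0 passed in R270H organoids. *Rev1*, the polymerase that also holds other translesion polymerases, fell from 9.84 and 9.65 rpkm to 1.83 and 3.87 rpkm in null organoids (-1.53, adjusted p = 0.0314), and stood at 4.97 and 4.79 rpkm in R270H organoids. *Primpol*, listed as *Ccdc111*, a primase that restarts stalled forks, fell from 7.41 and 8.03 rpkm to 4.82 and 5.26 rpkm in null organoids (-0.53, adjusted p = 0.0463).

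Of 12 other genes of deoxynucleotide supply, 2 rose and 1 fell in null organoids, and 1 rose in R270H organoids. *Rrm2*, the S phase counterpart of *Rrm2b*, stood at 64.1 and 71.7 rpkm in wild-type, 132 and 106 rpkm in null and 69.5 and 70.2 rpkm in R270H organoids. It rose in null (0.80, adjusted p = 0.0319), where *Rrm2b* values were lowest. The thymidine kinase genes moved apart in null organoids, cytosolic *Tk1* by 0.79 (adjusted p = 0.0282) and mitochondrial *Tk2* by -0.54 (adjusted p = 0.041). *Samhd1*, which degrades deoxynucleotides, rose in R270H organoids from 6.95 and 6.69 rpkm to 12.4 and 12.5 rpkm (0.78, adjusted p = 0.0133). Of the 14 proliferation genes, 5 also passed as higher in null organoids, and the part of this in the deoxynucleotide genes was not tested.

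The Gadd45 family did not move as 1 group. *Gadd45b*, a paralog of *Gadd45a*, stood at 10.2 and 8.45 rpkm in wild-type, 20.1 and 21.7 rpkm in null and 4.09 and 5.52 rpkm in R270H organoids. It rose in null (1.09, adjusted p = 0.0263), fell in R270H (-0.84, adjusted p = 0.0383) and was 1.93 lower in R270H than in null (adjusted p = 0.00429). *Gadd45gip1*, which encodes a protein that binds the Gadd45 family, rose in null organoids from 10.6 and 10.2 rpkm to 29.8 and 20.4 rpkm (1.17, adjusted p = 0.0357). Of 17 tested Fanconi anaemia and partner genes, 2 fell in R270H and 1 rose in null organoids. *Xrcc2*, which acts in homologous recombination, fell in R270H organoids by 0.62 (adjusted p = 0.0397). It passed the filter through its wild-type libraries alone (4.54 and 4.30 rpkm), so it could be tested only if it was high there. *Faap24*, listed as C230052I12Rik, a DNA-binding partner of the core complex, rose in null by 0.65 (adjusted p = 0.0353).

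Of 20 tested genes of base excision, mismatch and direct repair, *Mgmt* had the lowest difference in both comparisons. *Mgmt*, which removes alkyl groups from guanine, stood at 13.7 and 13.9 rpkm in wild-type and was listed at 1 in all 4 mutant libraries. Its mean was therefore at least 13.8-fold lower in either mutant genotype (adjusted p = 0.00303 for R270H and 0.00196 for null). Like *Polk*, *Mgmt* passed the filter through its wild-type libraries alone, so it could be tested only if it was high there. The thymine DNA glycosylase gene *Tdg* rose in R270H organoids from 55.8 and 55.5 rpkm to 78.6 and 77.0 rpkm (0.48, adjusted p = 0.0459).

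**Figure D5:**
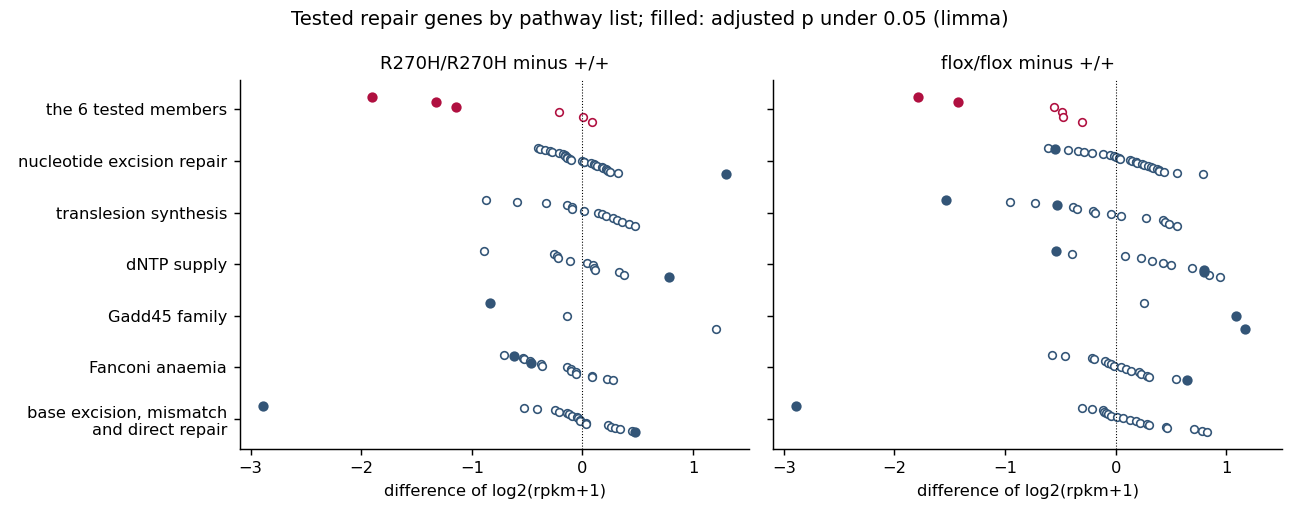
Fitted difference of log2(rpkm+1) (horizontal axis) of every tested repair gene, by pathway list (rows), for R270H (left) and null (right) against wild-type. Each mark is a gene and filled marks have an adjusted p under 0.05; the members have 3 filled marks on the left and 2 on the right, and *Mgmt* lies farthest left in both.

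The gene most like each member over the 6 libraries was found by Pearson's r of log2(rpkm+1), as a description over few points that share genotype. *Retsat* was most like *Ercc5* (r = 0.9975), with 30.1 and 31.9 rpkm in wild-type, 14.6 and 16.4 in null and 17.5 and 16.5 in R270H organoids. *Cdca7l* was most like *Polk* (r = 0.9985), with 31.2 and 31.5, 24.98 and 26.3, and 25.3 and 25.3 rpkm, a far smaller range than that of *Polk*. *Gstm6* was most like *Xpc* (0.9993), *Nit1* most like *Ddb2* (0.9954), *Mst1r* most like *Rrm2b* (0.9987), 9930023K05Rik most like *Gadd45a* (0.9966) and *Ncapg* most like *Fancc* (0.994).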

How the data were processed

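Poly A RNA from the 6 organoid cultures was sequenced on an Illumina HiSeq instrument from TruSeq Stranded libraries. The authors deposited rpkm values per gene, which they had calculated with StrandNGS after mapping to mm10. Its version, gene annotation, read filters and use of strand are not given in the sources used here. Low values were raised to 1 rpkm, as the values show.

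Groups were the 3 genotypes of the sample labels, with 2 libraries each. Values were analysed with Python 3.11.15 (pandas 2.3.3, numpy 2.4.6) and R 4.3.3. The test was limma 3.58.1 (lmFit, eBayes with a trend, two-sided) on log2(rpkm + 1), for the 10042 genes that reached 4 rpkm in any library, over all 6 libraries without a block, with Benjamini-Hochberg adjustment over all genes tested. A fold change of means is in rpkm, and a log2 difference is on the log2(rpkm + 1) scale, which understates changes of low genes. An exact test of 2 against 2 libraries cannot go below 0.333 and was not used. Libraries came from different mice. The p-values use 1 spread per gene between mice and their cultures, shared over the 3 genotypes and adjusted towards that of genes of like level. A comparison of 2 genotypes therefore also draws on the spread of the third.

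Depth was estimated from genes under 230 nt, whose values rise in steps of 1 read, and counting errors cover counting only. Gene positions and transcript lengths are from GENCODE M21 (GRCm38). A length was found for 99.3% of the tested genes. The 250 bases before each RefSeq start were searched for motifs. *Ddb2*, *Xpc* and *Rrm2b* had no entry.

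The members and gene lists were chosen with earlier results of these data known. Named were the 7 members, *Trp53*, *Cdkn1a* and *Mdm2*, listed repair genes that passed against wild-type (at most 6 a list), and the gene most like each member. *Acp2* and 2010111I01Rik, which overlap members, and the cell type and proliferation markers given by name were named after their values were seen. Of the listed genes that passed, 1 is left out here. The code was tested on simulated data.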

Additional observations from a re-analysis of the deposited data

How the results depend on the processing

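The alternatives were a pseudocount of 0.1 rpkm, no filter, median-of-ratios scaling, centring by chromosome, a weight per genotype, only the 2 genotypes compared, the replicate number as a block, each library left out, and, chosen after seeing the data, centring by transcript length. The members passing numbered 3, 2 and 2 in R270H against wild-type, null against wild-type and R270H against null, and the block, the weights and the smaller fits changed them. In R270H against wild-type 4 passed with weights, which added *Ddb2*, and 2 with length centring, which lost *Gadd45a*. In null against wild-type 1 passed with weights (*Polk*) and 0 with only the 2 genotypes (4 at an unadjusted p under 0.05, beside 2471 of all genes). In R270H against null 0 passed with weights, with the block or with only the 2 genotypes, and 1 with length centring (*Xpc*). With weights, the block and only the 2 genotypes, 2 members each time had an unadjusted p under 0.05, beside 2795, 3728 and 3045 of all genes. Other repair genes passing numbered 7, 10 and 14. They became 46, 2 and 1 with weights, 41, 1 and 1 with only the 2 genotypes, and 17 and 16 in the comparisons with wild-type with length centring. Over all genes the counts of 1227, 1133 and 2469 became 5987, 150 and 534 with weights and 5721, 47 and 378 with only the 2 genotypes. The comparisons with wild-type became 2105 and 2064 with length centring, and R270H against wild-type became 1907 without a filter. Leaving out 1 library at a time gave 0 to 3, 0 to 6 and 0 to 4 members, 0 to 41, 0 to 65 and 0 to 68 other repair genes, and 0 to 5732, 8 to 6875 and 166 to 7259 genes. At the counts of 0 in R270H against wild-type, 3 members, 7 to 9 other repair genes and 1470 to 1578 genes had an unadjusted p under 0.05. At those in null against wild-type 2 to 4 members and 10 to 12 other repair genes did, and at those in R270H against null 1 to 2 members and 11 other repair genes. The high ends came without a null library, and the lone library left was then assumed to vary like the others. The cause was not tested.

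The replicate numbers of the titles belong to different mice. Same-numbered deviations from the group means correlated at 0.117 (wild-type and null), -0.291 (wild-type and R270H) and -0.196 (null and R270H). A batch shared by libraries of different number was not tested. With the number as a block, 550, 280 and 1156 genes passed, and 3, 1 and 6 other repair genes. The block ended the calls of *Xpc* (adjusted p = 0.0589) and *Gadd45a* (adjusted p = 0.0601) in R270H against null and no other call of a member.

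Small differences changed sign. In R270H against wild-type, *Xpc* was -0.0014 with length centring, and *Rrm2b* was -0.0162 with median-of-ratios scaling, -0.073 with length centring, and from -0.0184 to 0.0211 with 1 library left out. In R270H against null, *Ercc5* was -0.0424 with chromosome centring and -0.0687 with length centring, and *Polk* was 0.1368 with chromosome centring and from -0.4233 (without null replicate 1) to 0.1892 (without null replicate 2) with 1 library left out. *Fancc* could be fitted only without the filter. The log2 differences of *Ercc5* and *Polk* against wild-type kept their direction under all alternatives run, from -1.26 to -1.63 and from -1.48 to -2.30. With 2 libraries per genotype and length trends, strongest in 1 null library, differences of the size seen for *Ddb2* and *Rrm2b* in null organoids were not resolved. Everything under 1 rpkm is unknown.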
